A study of Mus musculus with 14 samples.

Results

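The 4 genes described here are the chemokine receptors Cxcr4, Cx3cr1, Ccr7 and Cxcr3, taken by name from the 10210 genes of a table of natural killer (NK) cell counts, together with the genes of their ligands in a separate table of fibroblast counts. All 4 receptors were listed in the NK table, and all 4 passed the filter on low counts. NK cells came from 3 spleens of healthy mice, 4 spleens of tumour-bearing mice and 4 tumours. Every mouse was a BALB/c animal, and females of 8 weeks received 100000 cells of 4T1, a line of mouse mammary carcinoma that stands in for triple-negative breast cancer, into a mammary fat pad. The injected cells carried green fluorescent protein. The healthy mice differ by having no tumour, and no genetic change is named for any mouse. NK cells were enriched on magnetic beads and then sorted as CD45 and NKp46 positive cells lacking CD3, CD14, CD31, EPCAM and the fluorescent protein. The fibroblast libraries, 3 in number, came from sCAFs, one kind of cancer-associated fibroblast, sorted from such tumours by the absence of PDPN, CD45, CD31, EPCAM and the fluorescent protein. The study sequenced the spleens as controls for NK cells inside tumours, and the sCAFs to look for genes that bear on where NK cells move and settle.

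Chemokine receptors are G protein-coupled receptors of the cell surface. A ligand bound to one of them activates inhibitory G proteins and, through them, the actin skeleton and the integrins, so that a cell moves towards higher ligand or stops on a vessel wall. Arrestins and receptor kinases end the signal and draw the receptor inside the cell. Cxcr4 binds Cxcl12 and holds NK cell precursors and young NK cells in the bone marrow. Cx3cr1 binds Cx3cl1, which occurs as a tethered and as a shed form, and it marks mature circulating NK cells. Ccr7 binds Ccl19 and the Ccl21 proteins, which guide cells into lymph nodes. Cxcr3 binds Cxcl9, Cxcl10 and Cxcl11, which cells make in response to interferon.

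In the GENCODE M21 annotation of mouse build GRCm38 the 4 receptors are protein-coding genes on the minus strand. Cxcr4 lies on chromosome 1 from 128588199 to 128592293, Cx3cr1 on chromosome 9 from 119901616 to 120069879, Ccr7 on chromosome 11 from 99144196 to 99155077, and Cxcr3 on chromosome X from 101731535 to 101734269. Exons of Cx3cr1 overlap those of 1 gene on the opposite strand, Gm33858, and the other 3 receptors share no exon bases with another gene. Gm33858 is not among the genes tested. Of the 4 members 3 matched an upstream sequence, and only the stretch just before the start of Cxcr4 touched no annotated exon, so this stretch is shown. It covers the 250 bases upstream of the RefSeq start, chr1:128592300-128592549 on the minus strand of GRCm38.p6, and is given 5′ to 3′. Capitals mark the only match to the core of the hypoxia response element (ACGTG or GCGTG, either strand).
Cxcr4: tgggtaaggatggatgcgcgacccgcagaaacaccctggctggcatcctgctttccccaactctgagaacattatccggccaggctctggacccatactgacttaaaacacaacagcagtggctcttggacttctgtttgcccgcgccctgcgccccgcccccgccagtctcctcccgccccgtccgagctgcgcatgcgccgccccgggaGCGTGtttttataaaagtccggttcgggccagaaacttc
The match begins 39 bases before the start. Such a match occurs in 38.6% of the 32851 upstream windows of this length in the RefSeq table, so it is frequent. The window is rich in G and C (61.2%) and holds 19 CG pairs. No match was found for AP-1 (TGANTCA), the T-box (AGGTGTGA), the NBRE (AAAGGTCA), a KLF form (CCACACCC) or the kappaB consensus, which occur in 6.75%, 1.12%, 1.34%, 3.2% and 3.9% of the windows. These matches describe letters and not binding.

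Total counts over listed genes ran from 559688 to 1966963 in the NK libraries and from 1318067 to 2230475 in the sCAF libraries. Levels are given as CPM, a count relative to library size, on library sizes scaled by the trimmed mean of M-values (TMM) for NK cells and on plain totals for sCAFs. A count of 3 corresponds to between 1.544 and 4.623 CPM in an NK library. The 7 spleen libraries fell into 2 sets that cross the groups and for which the labels name no reason. Tumour-bearing replicates 1 and 2 and healthy replicate 1 lay on one side of the second principal component (at least 14.31) and the other 4 on the other (at most −6.323), so results are also given within each set where they move. The 8 NK marker genes summed to between 21900 and 24890 CPM in spleen libraries and between 16080 and 20020 in tumour libraries. Of 12 macrophage and monocyte markers 7 were listed, with sums of 31.38 to 153.3 CPM in tumour NK, 13.72 to 21.62 in tumour-bearing spleens and 4.623 to 14.86 in healthy spleens, and the highest sum was in tumour replicate 3. Of 5 neutrophil markers 3 were listed, with sums of 59.84 to 158 CPM in tumour NK and at most 11.16 in any spleen library. Tumours were digested with enzymes for 20 minutes at 37 °C while spleens were crushed and freed of red cells on ice, so tissue and preparation cannot be told apart. In bulk RNA, a change in the share of cells that express a gene and a change in its RNA per cell cannot be told apart either. Nothing in the labels ties libraries to single mice beyond calling them independent replicates, and p-values measure the spread between these libraries.

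Cxcr4 was higher and Cx3cr1 lower in tumour NK cells than in NK cells of either kind of spleen, Ccr7 was near its detection limit in spleens and present in every tumour library, and Cxcr3 was called in none of the comparisons. Cx3cr1 was also the one member that differed between the spleens, being higher in tumour-bearing mice. Against tumour-bearing spleens 2 of 4 members were called higher and 1 lower, where 15.8% of the 8471 genes tested were called higher and 13.2% lower. Against healthy spleens the members' counts were the same, beside 16.5% and 14% of all genes. Between the spleens 1 of 4 members was called higher, beside 1.23% of all genes called higher and 0.354% called lower. One of the 2 called higher in each tumour comparison, Ccr7, passed the filter only through the tumour libraries, so its call is a description and adds nothing to the count. A call is an adjusted p under 0.05 in edgeR's quasi-likelihood test with Benjamini-Hochberg adjustment over all genes tested, and all adjusted p-values below come from it. In CPM, 3 of 4 members were higher in every tumour than in every tumour-bearing spleen library and 1 was lower, beside 16.5% and 13.3% of all genes. Against healthy spleens 2 members were higher without overlap and 1 lower, beside 18.5% and 16.3%, and between the spleens 1 was higher and 0 lower, beside 6.52% and 5.71%. The median log2 fold change of the members was 1.76, 1.49 and −0.22 in these comparisons, and that of all genes was 0.0014, 0.016 and −0.0042. Ccr7 also enters the members' medians and their counts without overlap in the tumour comparisons. These counts and medians are therefore descriptions too. The first 2 comparisons share the tumour libraries and each pair of comparisons shares 1 group.

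**Figure D1:**
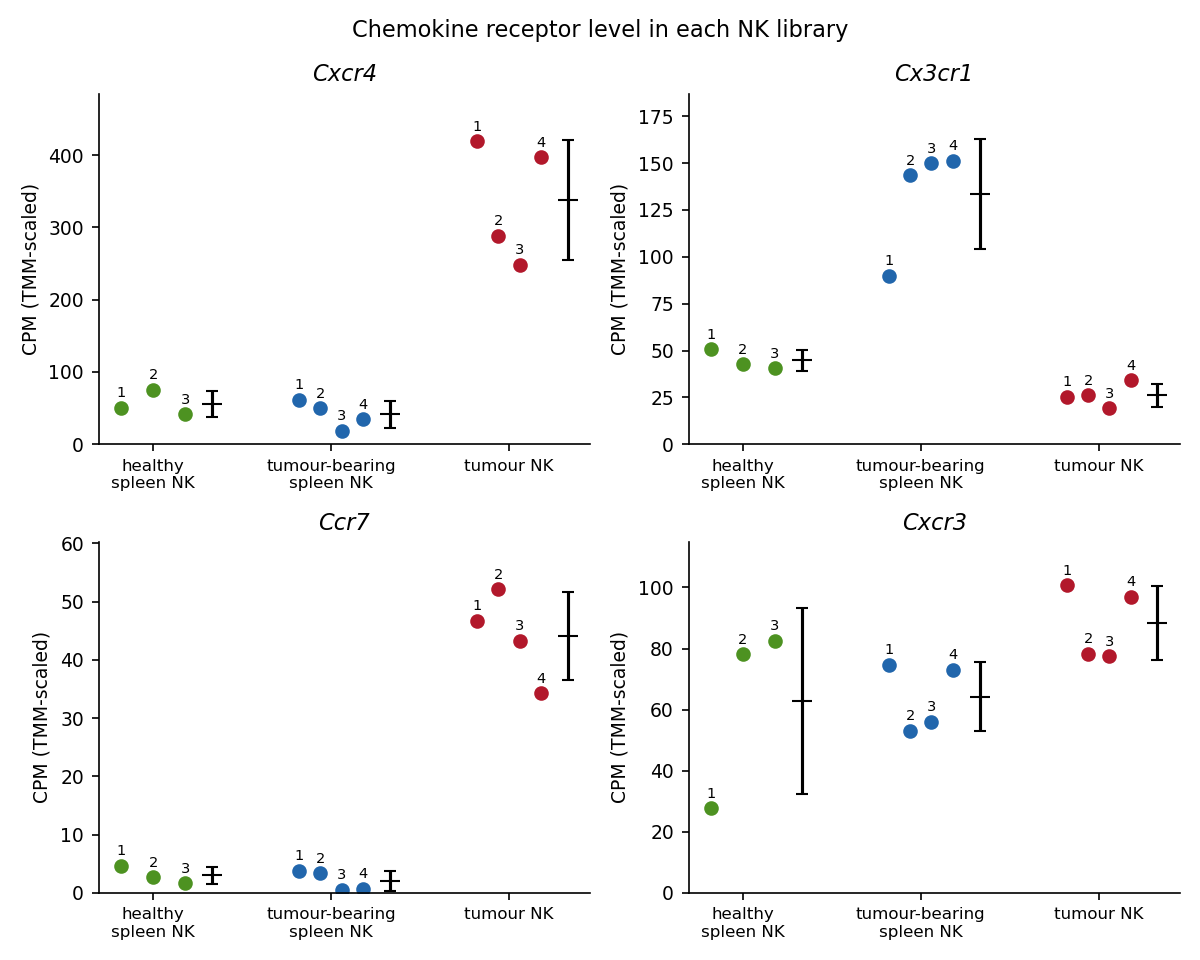
CPM of Cxcr4, Cx3cr1, Ccr7 and Cxcr3 in each of the 11 NK libraries, 1 panel a gene, with the replicate number over each point and the mean ± SD of the group as a black bar beside it. The tumour libraries stand above all spleen libraries for Cxcr4 and Ccr7 and below them for Cx3cr1, whereas for Cxcr3 the tumour libraries (77.56 to 100.8) overlap the healthy spleens (27.74 to 82.53).

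Cxcr4 was at 418.9, 288.4, 248.3 and 397.4 CPM in tumour replicates 1 to 4. It was at 61.74, 49.68, 19.04 and 34.72 CPM in the tumour-bearing spleens and at 50.85, 75.44 and 41.27 CPM in the healthy spleens. The lowest tumour library was thus more than 3 times above the highest spleen library, and the spleen groups overlapped. The mean was 338.2 ± 82.8 CPM (SD, n = 4) in tumours, 41.3 ± 18.5 (n = 4) in tumour-bearing spleens and 55.85 ± 17.6 (n = 3) in healthy spleens. The log2 fold change was 3.05 (SE 0.331, adjusted p = 4.01e-05, edgeR) against tumour-bearing spleens, an 8.3-fold rise. Against healthy spleens it was 2.56 (SE 0.364, adjusted p = 0.000313, edgeR), a 5.9-fold rise. Within the 2 sets of spleen libraries, the tumour libraries exceeded tumour-bearing replicates 1 and 2 by 2.60 and replicates 3 and 4 by 3.65 on the log2 scale. Cxcr4 was called under all 19 alternatives of processing in both tumour comparisons. Between tumour-bearing and healthy spleens its log2 difference was −0.49 (adjusted p = 0.718, edgeR). An approximate 95% interval, taken from the SE with a normal distribution, was −1.23 to 0.25 and is narrower than the test implies. The direction differed between the sets of spleen libraries. Tumour-bearing replicates 1 and 2 had a mean of 55.71 CPM against 50.85 in healthy replicate 1. Tumour-bearing replicates 3 and 4 had 26.88 against 58.35 in healthy replicates 2 and 3.

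Cx3cr1 showed 3 levels. It was at 89.94, 143.4, 149.8 and 151.2 CPM in tumour-bearing spleens, at 50.85, 42.8 and 40.44 CPM in healthy spleens, and at 25.41, 26.08, 19.24 and 34.23 CPM in tumours. No group overlapped another, and tumour-bearing replicate 1 lay apart from the other 3 of its group. The means were 133.6 ± 29.3 (SD, n = 4), 44.7 ± 5.46 (n = 3) and 26.24 ± 6.15 CPM (n = 4) in that order. Tumour NK cells were lower than tumour-bearing spleens by a log2 fold change of −2.37 (SE 0.202, adjusted p = 3.45e-08, edgeR), a 5.18-fold fall. Tumour-bearing spleens were higher than healthy spleens by 1.60 (SE 0.209, adjusted p = 0.000212, edgeR), a 3.04-fold rise. Within the sets of spleen libraries, the mean was 116.7 CPM in tumour-bearing against 50.85 in healthy spleens in the first and 150.5 against 41.62 in the second. With the set as a block, the difference was 1.68 (SE 0.162, adjusted p = 3.5e-09, edgeR). Of 10 T cell markers 3 were listed, and their sum was also higher in tumour-bearing spleens (99.35 to 149 CPM) than in healthy spleens (43.15 to 79.23), with 64.65 to 105.7 in tumours. Cd3d was called higher between the spleens (80.22 ± 19.1 CPM, SD, n = 4, against 28.07 ± 9.11, n = 3, adjusted p = 0.00446, edgeR), Cd3g was not (adjusted p = 0.535), and Cd4 was too low to test. The part of T cells in the level of Cx3cr1 was not tested. The fall from healthy spleens to tumours was smaller, at −0.77 (SE 0.236, adjusted p = 0.0182, edgeR). It was not called without healthy replicate 2 (−0.80, adjusted p = 0.0507), without tumour replicate 3 (−0.63, adjusted p = 0.0658) or with healthy replicate 1 as the only control (−0.97, adjusted p = 0.0948).

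Counts of Ccr7 were 57, 36, 72 and 36 in tumour replicates 1 to 4. They were 5, 6, 1 and 1 in tumour-bearing spleens and 3, 5 and 2 in healthy spleens, around the 3 counts taken as the detection limit. As levels these are 34.23 to 52.17 CPM in tumours, 0.5147 to 3.811 in tumour-bearing spleens and 1.651 to 4.623 in healthy spleens. The tumour libraries do not overlap either spleen group, while the spleen groups overlap each other. The gene passed the filter only through the tumour libraries, so it could enter the test only by being high there. The ratio of summed counts, scaled for library size, was 21.5 against tumour-bearing spleens (exact 95% interval 12.3 to 41.1) and 16.2 against healthy spleens (8.63 to 34.3), where the interval covers counting error only. The fitted log2 fold changes were 4.37 (SE 0.37, adjusted p = 3.24e-08, edgeR) and 3.97 (SE 0.422, adjusted p = 6.74e-07, edgeR). The 13 counts of the tumour-bearing spleens came mostly from replicates 1 and 2, and the tumour libraries exceeded these by 3.58 and replicates 3 and 4 by 5.94 on the log2 scale. Ccr7 is also made by activated dendritic cells. Of 9 dendritic cell markers only 1 was listed in the NK table, at 12.36 to 22.95 CPM in tumour NK, 3.616 to 5.336 in tumour-bearing and 1.541 to 4.28 in healthy spleens. The part of such cells in the level of Ccr7 was not tested.

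Cxcr3 differed least. It was at 100.8, 78.25, 77.56 and 96.98 CPM in tumours, at 74.7, 53.03, 56.1 and 73.05 CPM in tumour-bearing spleens, and at 27.74, 78.12 and 82.53 CPM in healthy spleens. All 4 tumour libraries were above all 4 tumour-bearing spleens, as was the case for 16.5% of all genes, and healthy replicate 1 was the lowest of all libraries. This library had the smallest total. The log2 difference between tumours and tumour-bearing spleens was 0.47 (SE 0.228, unadjusted p = 0.0547, adjusted p = 0.136, edgeR). It was called when these 2 groups were fitted alone (0.45, adjusted p = 0.0434) and without healthy replicate 1 (0.44, adjusted p = 0.0311). Against healthy spleens the difference was 0.42 (approximate 95% interval −0.071 to 0.92, adjusted p = 0.223, edgeR). It was 1.68 (adjusted p = 0.00301) against healthy replicate 1 alone and 0.12 (adjusted p = 0.647) against replicates 2 and 3. Between the spleens the approximate interval was −0.54 to 0.44.

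The balance of Cxcr4 and Cx3cr1 within a library does not depend on how libraries are scaled. Cxcr4 had 16.5, 11.1, 12.9 and 11.6 counts per count of Cx3cr1 in tumour replicates 1 to 4. The ratio was 1, 1.76 and 1.02 in healthy spleens and 0.686, 0.346, 0.127 and 0.23 in tumour-bearing spleens. The 3 groups did not overlap, and the order put tumour-bearing spleens at the low end, healthy spleens between and tumours at the high end. The order of the groups follows from the levels of the 2 genes given above and is no further result. Counting error alone leaves the lowest tumour library, replicate 2, between 6.8 and 19 and the highest healthy library between 1.33 and 2.35 (exact 95% intervals). The interval of tumour-bearing replicate 1 (0.511 to 0.919) overlaps those of healthy replicates 1 (0.598 to 1.67) and 3 (0.674 to 1.55). The intervals of tumour-bearing replicates 2 to 4, at most 0.442, lie below those of all healthy libraries. Because capture of the 2 genes may differ, the ratio compares libraries and not the amounts of the 2 receptors.

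**Figure D2:**
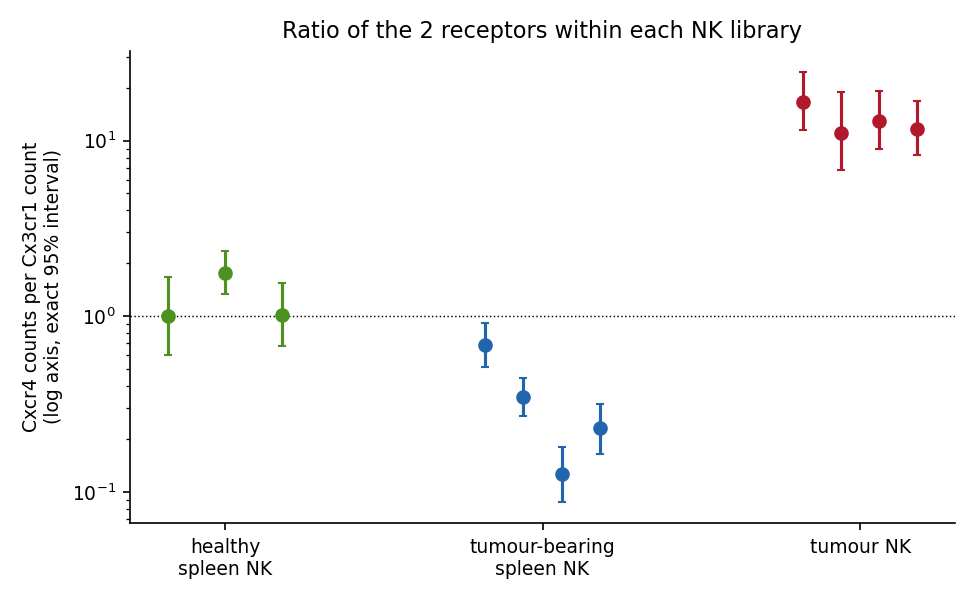
Counts of Cxcr4 per count of Cx3cr1 in each NK library on a log axis, by group, with exact 95% intervals for counting error and a dotted line at 1. Tumour libraries lie between 11.1 and 16.5, healthy spleens between 1 and 1.76, and tumour-bearing spleens between 0.127 and 0.686.

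The wider receptor family was taken from a list of 23 chemokine receptor genes with the members, of which 10 were in the NK table and 8 were tested. In each tumour comparison 5 of these 8 were called higher and 1, Cx3cr1, lower, with a median log2 fold change of 2.45 against tumour-bearing and 2.23 against healthy spleens. Of all genes 15.8% were called higher and 13.2% lower in the first and 16.5% and 14% in the second. Of the 5, Ccr7 and Cxcr5 passed the filter only through the tumour libraries, so that the count and the median are descriptions of the genes that passed. In the comparison of spleens, Cx3cr1 was the only one called. Cxcr6, the receptor for Cxcl16 found on tissue-resident lymphocytes, was at 113.1, 81.15, 75.16 and 80.82 CPM in tumours, 25.92, 11.72, 7.721 and 10.13 in tumour-bearing spleens and 13.87, 8.561 and 15.68 in healthy spleens. Every tumour library was above every spleen library, and the log2 fold change was 2.70 (SE 0.285, adjusted p = 1.33e-06, edgeR) against tumour-bearing and 2.85 (SE 0.339, adjusted p = 5.52e-06, edgeR) against healthy spleens. Ccrl2, an atypical receptor that binds chemerin without signalling, was at 95.08 to 156.5 CPM in tumours and at 18.29 to 31.26 in all 7 spleen libraries. It rose by 2.20 and 2.46 on the log2 scale.

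Cxcr5, the receptor that leads lymphocytes to B cell follicles, had 13, 6, 7 and 14 counts in tumours and 0 to 4 in each spleen library, and it too passed the filter only through the tumours. Its exons overlap those of Bcl9l on the opposite strand. The ratio of summed counts was 7.94 against tumour-bearing (exact 95% interval 3.52 to 21) and 4.03 against healthy spleens (1.86 to 9.97), and the second call was lost without healthy replicate 2 (adjusted p = 0.153) and against healthy replicate 1 alone (adjusted p = 0.275).

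Ccr2, the receptor for Ccl2, was not called in any comparison and followed the sets of spleen libraries. Its mean was 616.5 CPM in tumour-bearing replicates 1 and 2 and 164.3 in replicates 3 and 4, and 850.6 in healthy replicate 1 and 158.4 in replicates 2 and 3. Tumour libraries were at 554.3 to 1053 CPM. The log2 difference from tumour-bearing spleens was 1.07 (SE 0.702, adjusted p = 0.299, edgeR), and it was 0.41 against replicates 1 and 2 and 2.28 against replicates 3 and 4. Against healthy replicates 2 and 3 alone, the difference of 2.36 was called (adjusted p = 0.0421), and against healthy replicate 1 it was −0.046. The remaining 2 listed receptors, Ccr1 and Ackr4, were too low to test. Tumour replicate 3 held 10 of the 12 tumour counts of Ccr1, a receptor of monocytes and neutrophils, and it also held 39 counts of the macrophage gene C1qa where the other 3 tumour libraries had 6, 1 and 1.

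**Figure D3:**
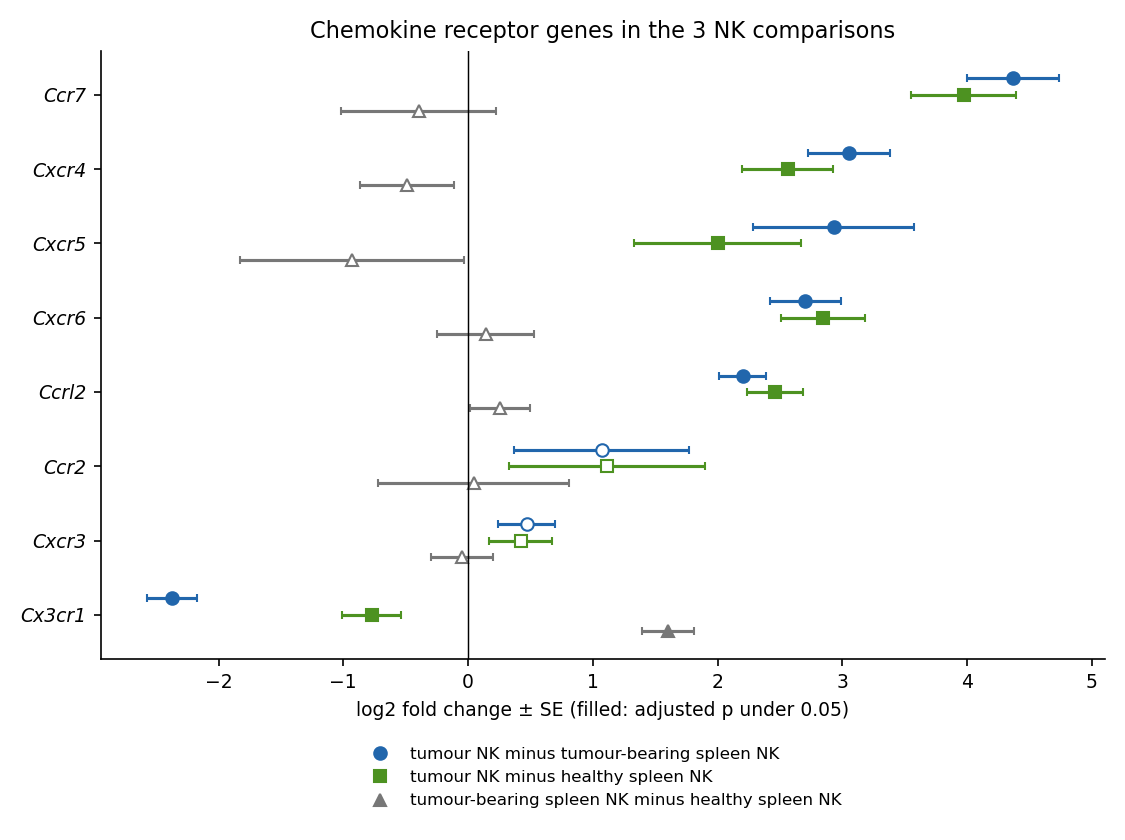
Log2 fold change ± SE of the 8 tested chemokine receptor genes in the 3 NK comparisons, with filled symbols where the adjusted p is under 0.05. Both tumour comparisons place Ccr7 and Cxcr4 highest among the members and Cx3cr1 lowest, and Cx3cr1 is the only filled symbol (1.60) for tumour-bearing against healthy spleens.

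Inside the NK cells, a list of 27 genes of receptor signalling was examined, from G proteins and receptor kinases to the switches that turn integrins on. Of the 25 tested, 0 were called higher and 7 lower against tumour-bearing spleens, beside 15.8% and 13.2% of all genes, where 1 was higher at an unadjusted p under 0.05 and DESeq2 called 0 higher and 7 lower. The list's median log2 fold change was −0.1. Rasgrp2, which activates Rap1 and with it integrins, was at 159.4 ± 30.9 CPM (SD, n = 4) in tumours, 456.7 ± 32.6 (n = 4) in tumour-bearing and 550.9 ± 19.8 (n = 3) in healthy spleens. It fell by 1.52 (adjusted p = 1.23e-07) and by 1.79 (adjusted p = 3.72e-08) on the log2 scale. Plcb2, a phospholipase downstream of G proteins, fell by 0.73 and 1.08, and Apbb1ip, the Rap1 effector that recruits talin, fell by 0.50 and 0.74. Against healthy spleens 1 gene was called higher and 6 lower, beside 16.5% and 14% of all genes. The gene called higher was the receptor kinase Grk5 (0.68, adjusted p = 0.0355), and this call was lost under upper-quartile scaling (0.58, adjusted p = 0.0672) and in DESeq2, which called 0 of the list higher. The 7 calls against tumour-bearing spleens became 3 without tumour replicate 1 or 2 and 4 without tumour replicate 4, tumour-bearing replicate 3 or tumour-bearing replicate 4. Only 2 were called against tumour-bearing replicates 1 and 2. The 7 against healthy spleens became 4 without healthy replicate 3 and 3 against healthy replicate 1 alone.

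Of 10 genes for transcription factors known to act on these receptors or on NK cell trafficking, 5 were called higher and 2 lower in tumours against tumour-bearing spleens, beside 15.8% and 13.2% of all genes. Hif1a, the hypoxia-inducible factor subunit, was at 40.88 to 59.02 CPM in tumours, 14.93 to 26.68 in tumour-bearing and 12.38 to 40.06 in healthy spleens, and rose by 1.30 (adjusted p = 0.00136) and 1.34 (adjusted p = 0.0034). The NF-kappaB genes Relb, Rela and Nfkb1 rose by 1.22, 0.46 and 0.43 against tumour-bearing spleens, and the call of Nfkb1 was lost under upper-quartile scaling (0.33, adjusted p = 0.0573). Foxo1 rose by 0.70 against tumour-bearing spleens and was not called against healthy spleens (0.348, adjusted p = 0.0881, edgeR). Klf2, which sustains the genes of lymphocyte egress, was at 196 to 286.9 CPM in tumours, 509.2 to 567.7 in tumour-bearing and 594.8 to 761.4 in healthy spleens, and it fell by 1.16 and 1.53. Tbx21, the T-bet gene, fell by 0.50 against tumour-bearing spleens. Against healthy spleens it was not called (−0.342, adjusted p = 0.103, edgeR) except under upper-quartile scaling (−0.445, adjusted p = 0.0316). Eomes (given below) and Nr3c1, the glucocorticoid receptor gene, were not called, the latter at 0.27 (adjusted p = 0.176) and 0.36 (adjusted p = 0.0997). Zeb2 had 0 to 10 counts in tumours and 4 to 27 in healthy spleens, and it passed the filter only through spleen libraries. Its log2 difference of −1.54 from healthy spleens (adjusted p = 0.0355, edgeR) is thus a description. With it, 4 of the 10 were called higher and 2 lower against healthy spleens, beside 16.5% and 14% of all genes. Only 1 was called lower and 1 higher against healthy replicate 1 alone. Between the spleens 0 of 10 were called in edgeR and 0 in DESeq2, 2 were lower at an unadjusted p under 0.05, and with the set of spleen libraries as a block 2 were called lower.

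Since Cx3cr1 marks mature NK cells, 11 genes of NK cell maturation and egress were examined beside it. Against tumour-bearing spleens 2 were called higher and 5 lower, beside 15.8% and 13.2% of all genes, so the higher calls are near the share of all genes. S1pr5, the receptor by which mature NK cells leave bone marrow and lymph nodes, was at 37.88 to 52.29 CPM in tumours, 298 to 422.6 in tumour-bearing and 430 to 522.4 in healthy spleens. It fell by 3.09 (SE 0.166, adjusted p = 6.48e-11, edgeR) and 3.50. Cma1 fell by 2.25 and 1.81, Klrg1 by 1.62 and 1.51, Itgam, the CD11b gene, by 0.94 and 0.87, and Spn by 0.64 and 0.67 against tumour-bearing and healthy spleens. Kit and Tcf7, genes of less mature NK cells, rose by 1.87 and 0.88 against tumour-bearing spleens. Cd27 was not called, at −0.071, nor was Il7r, at 60.85 to 111.8 CPM in tumours and 12.35 to 58.69 in tumour-bearing spleens (adjusted p = 0.0511). Gzma, the granzyme A gene, was at 11440 to 15780 CPM in tumours and 16380 to 19300 in tumour-bearing spleens, and its difference of −0.40 (adjusted p = 0.0653) was called only under upper-quartile scaling (−0.50, adjusted p = 0.018) of the 3 scalings, as was that from healthy spleens (−0.47, adjusted p = 0.0333). Against healthy spleens S1pr1 was lower as well (−1.24, adjusted p = 0.0121), which made 6 lower, beside 14% of all genes. S1pr1 had 3 to 11 counts in tumours, and it was at 5.74 CPM there, 6.044 in tumour-bearing and 13.82 in healthy spleens. It was not called between tumours and tumour-bearing spleens (0.0062, adjusted p = 0.992, edgeR) or between the spleens (−1.24, adjusted p = 0.0735, edgeR). Between the spleens the list had 1 call, Kit, which like Cx3cr1 was higher in tumour-bearing mice (33.19 ± 5.9 CPM, SD, n = 4, against 13.96 ± 1.6, n = 3, adjusted p = 0.00649, edgeR). That call was lost without healthy replicate 2, and with the set of spleen libraries as a block 5 genes of the list were called, 2 higher and 3 lower. Kit was however highest in tumours, at 122.4 ± 16.5 CPM (n = 4), where Cx3cr1 was lowest.

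The receptors can also be carried by innate lymphoid cells of group 1 that share the NKp46 marker. Of 7 genes that mark such cells 6 were listed, and they summed to 244.3 to 268.9 CPM in tumours, 32.94 to 112.8 in tumour-bearing and 42.8 to 117.1 in healthy spleens. Of the 5 tested, which include Cxcr6, 4 were called higher in each tumour comparison, beside 15.8% and 16.5% of all genes. Cd200r1 and Inpp4b passed the filter only through the tumour libraries, so the count of calls is a description. Cd200r1 had 5 to 12 counts in tumour-bearing and 3 to 7 in healthy spleens, and Inpp4b had 2 to 13 and 1 to 7. Tnfsf10, the TRAIL gene, rose by 2.42 and 2.87, Cd200r1 by 1.58 and 1.81 and Inpp4b by 1.88 and 1.95. Without healthy replicate 2 or 3, and against healthy replicate 1 alone, the 4 calls against healthy spleens became 2, as did those against tumour-bearing replicates 1 and 2. Itga1, the CD49a gene, had 8, 6, 6 and 5 counts in tumours and 0 to 2 in each spleen library, and Eomes, a gene of conventional NK cells, did not pass the test (0.48, adjusted p = 0.102, against tumour-bearing spleens). The part of these cells in the receptor levels was not tested.

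For each member the 3 most similar genes were sought over the 11 NK libraries, by the root mean square difference of centred log2 CPM among 5864 genes. For Cxcr4 these were Rora at 0.329, Smad7 at 0.433 and Epas1 at 0.447, where the median gene was at 1.5. Rora encodes a nuclear receptor, Smad7 an inhibitor of TGF-beta signalling, and Epas1 the hypoxia factor HIF-2alpha. Smad7 was at 416.7 to 544.9 CPM in tumours and at most 94.52 in a spleen library. For Cx3cr1 they were Ephx1 at 0.373, Gfra2 at 0.462 and Cma1 at 0.531, with a median of 1.08. Ephx1, an epoxide hydrolase, had the same order of groups, at 56.49 ± 13.9 CPM (SD, n = 4) in tumour-bearing spleens, 25.2 ± 7.43 (n = 3) in healthy spleens and 12.2 ± 2.33 (n = 4) in tumours. For Ccr7 they were Icos at 0.412, Irs2 at 0.435 and Vegfa at 0.451, with a median of 2.19. Icos, a costimulatory receptor, was at 77.01 to 106.6 CPM in tumours and at most 9.246 in a spleen library. For Cxcr3 they were Rpl23a at 0.139, Vrk2 at 0.213 and Prkd2 at 0.224, with a median of 0.575. Rpl23a, a ribosomal protein gene, was lowest in healthy replicate 1 (980 CPM), the library in which Cxcr3 was lowest. These likenesses are a description over libraries that share the difference between tissues.

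The ligands were read in the sCAF libraries, which have no control group. Of 12 ligand genes of the members 7 were in that table. Counting at the 3′ end depends on the gene, so levels are not ranked between ligands. Cxcl12, the ligand of Cxcr4, was at 10.31, 28.83 and 45.8 CPM in sCAF replicates 1 to 3, from 23, 38 and 61 counts, a more than 4-fold spread. Mif, a cytokine that also binds Cxcr4, was at 1048, 1130 and 886.7 CPM. Cx3cl1, the ligand of Cx3cr1, was at 392.7, 278.4 and 188.5 CPM, and so was present in every library and highest where Cxcl12 was lowest. The proteases that shed it were present too, Adam17 at 113 ± 26.1 CPM and Adam10 at 21.85 ± 2.5 (SD, n = 3). Dpp4, a peptidase that trims Cxcr3 ligands, had 1 count in all.

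Of the Cxcr3 ligands, Cxcl10 was at 230.9, 159.3 and 202 CPM in sCAF replicates 1 to 3. Cxcl9 was at 14.8, 6.069 and 8.259 CPM, from 33, 8 and 11 counts. Cxcl11, which GENCODE M21 lists as a polymorphic pseudogene, was at 31.83, 15.17 and 3.003 CPM, the last from 4 counts, and shares exon bases with Gm2673 on the other strand. Of the Ccr7 ligands only Ccl19 was listed, with 0 counts in all 3 libraries, which allows up to 1.345 to 2.276 CPM for a library. Of the members, Cxcr4 had 4, 3 and 2 counts and Ccr7 2, 0 and 3 in sCAFs, while Cxcr3 had 10, 9 and 12 (6.774 ± 2.26 CPM, SD, n = 3). Ackr3, the scavenging receptor for Cxcl12, was at 157 ± 17.1 CPM (SD, n = 3).

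**Figure D4:**
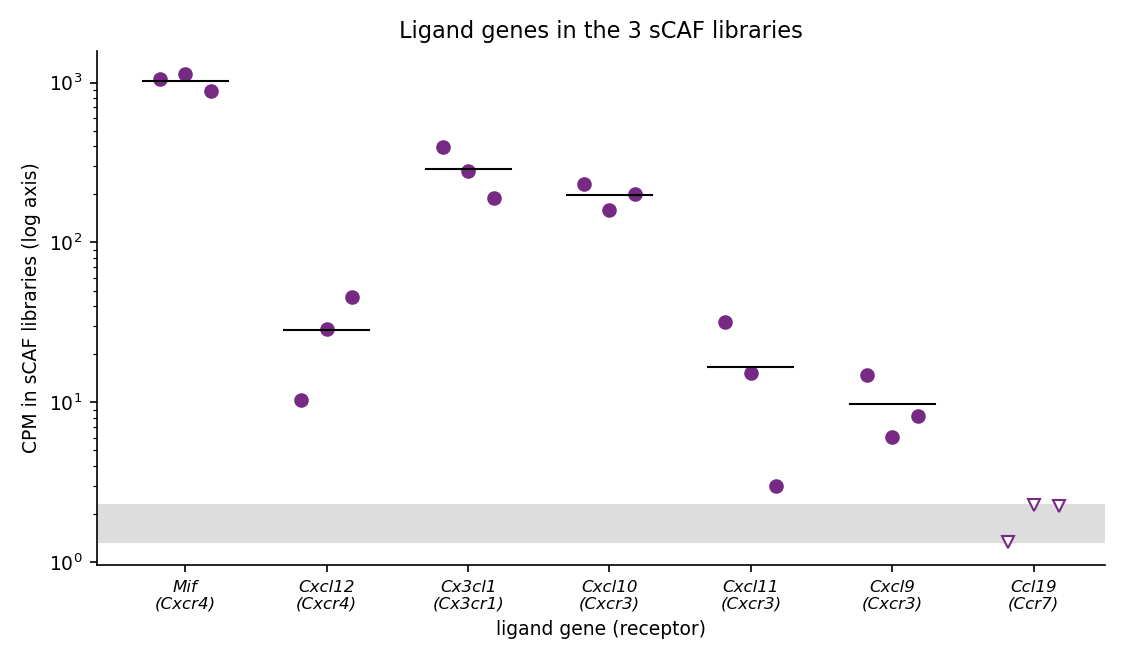
CPM of 7 ligand genes in the 3 sCAF libraries on a log axis, with the receptor in brackets, replicates 1 to 3 from left to right and the mean as a line. The grey band marks the range of 3 counts (1.345 to 2.276 CPM), and open triangles put libraries with 0 counts at their limit, as for Ccl19 in all 3.

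The identity of the sCAF libraries bears on these ligand levels. Fibroblast genes were present, with Col1a2 at 320.8 ± 125 CPM, Col3a1 at 196.6 ± 105 and Pdgfra at 62.16 ± 22.3 (SD, n = 3). All 10 fibroblast markers were listed and summed to 2701 to 3171 CPM, of which S100a4, a gene of many cell types, had 2086 ± 640, and Fap (1.158 ± 0.98) and Lum (1.052 ± 0.395) were near the 3-count limit. The epithelial keratin genes Krt18 and Krt8 were at 2514 ± 415 and 760.1 ± 67.8 CPM, and Epcam, a marker used to exclude cells, was at 19.31 ± 11.7. The pan-leukocyte marker Ptprc (1.098 ± 0.962), the endothelial marker Pecam1 (1.808 ± 0.79) and Pdpn (2.056 ± 1.5) were near the 3-count limit. Of 12 macrophage and monocyte markers 9 were listed, with sums of 83.46 to 175.7 CPM, led by Cd14 at 50.72 ± 28.9, with Lyz2 at 17.49 ± 3.32 and C1qa at 14.57 ± 5.5. All 5 markers of mural cells were listed, with sums of 42.14, 61.45 and 284.6 CPM in sCAF replicates 1 to 3. The part of epithelial, myeloid or mural cells in the ligand levels was not tested.

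A few ligands were also listed in the NK table. Cxcl10 was at 149.2, 204.3, 113 and 125.5 CPM in tumour NK and at 1.544 to 7.622 in all 7 spleen libraries. Of these 7 only 1 reached the level of the filter, so the gene entered the test through the tumours and its call is a description. The ratio of summed counts, scaled for library size, was 29.8 (exact 95% interval 20.7 to 44.5) against tumour-bearing and 32.4 (19.8 to 57) against healthy spleens. Its exons overlap those of Art3 on the opposite strand, and whether the counting used strand is not given, so reads of the 2 genes cannot be told apart. Mif was at 214.5 to 298.2 CPM in tumours, 152.9 to 252.3 in tumour-bearing and 80.13 to 172.5 in healthy spleens. It was called against healthy spleens (0.95, adjusted p = 0.00293) and not against tumour-bearing spleens (0.33, adjusted p = 0.22). Adam17 rose by 0.59 and 0.56 in the tumour comparisons. Pf4, a platelet chemokine that binds Cxcr3, had 15 counts in tumour replicate 3 and at most 3 in any other NK library.

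**Figure D5:**
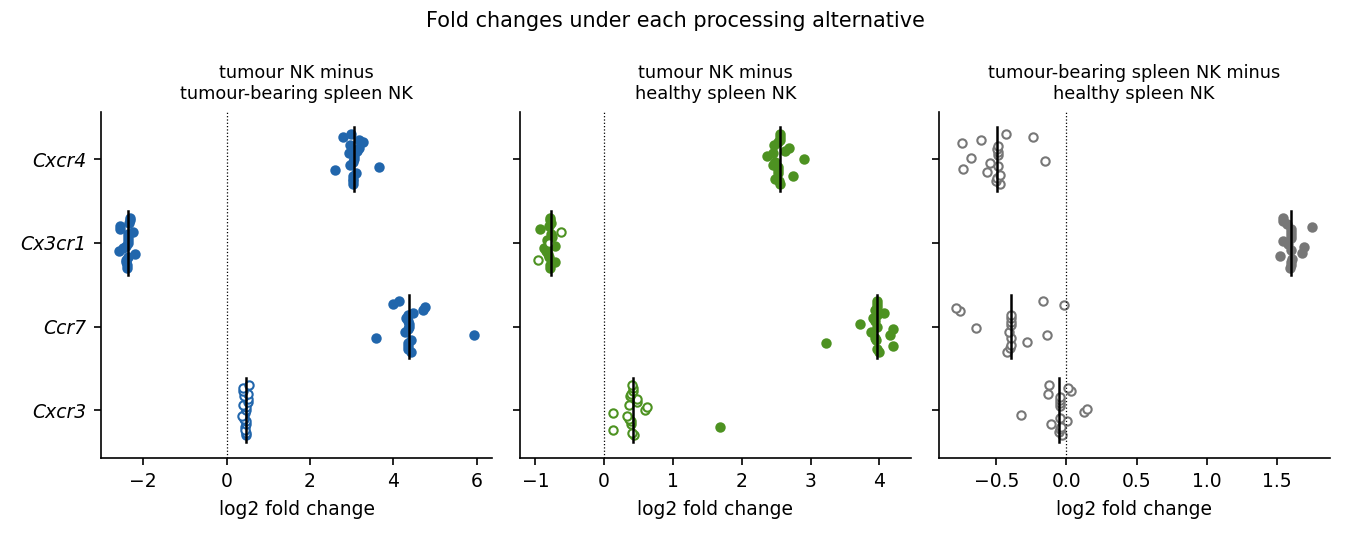
Log2 fold changes of the 4 members in the 3 NK comparisons under each alternative of processing (points, filled where the adjusted p is under 0.05), with the reported value as a black line. Cxcr4 and Ccr7 stay filled in both tumour comparisons and Cx3cr1 in the first and the last, while open points of Cx3cr1 against healthy spleens mark the 3 alternatives in which its call was lost.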

How the data were processed

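Raw counts per gene symbol were deposited by the authors in 2 tables, one for NK cells and one for sCAFs (10210 and 12235 genes). Per the submitters' processing notes bcl2fastq, STAR 2.4.2a, HTSeq and build mm10 were used on 3′ end libraries of polyA RNA. Use of molecular identifiers, the annotation and strand are not given in the sources used here. Genes in the NK table reach at least 6 counts in some library, so absent genes have no value. Headers had broken spacing, so 2 names in the NK table (tumour replicates 3 and 4) and 1 in the sCAF table were assigned by position. All columns were mapped.

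With edgeR 4.0.16 in R 4.3.3, filterByExpr (minimum count 10) kept 8471 genes, and 1 robust quasi-likelihood model with TMM scaling was fitted to the 11 NK libraries. It was tested on simulated data. DESeq2 1.42.0 and other scalings, filters, blocks and left-out libraries were alternatives. Genes that could be named were the members, those of the receptor, ligand, protease, regulator and maturation lists, up to 3 called signalling genes a direction, the 3 nearest patterns (mean CPM of at least 20) and markers. Results of 2 genes of these lists are not reported here. Promoters came from RefSeq, where 3 of 4 members matched. Members and lists were chosen with earlier results of these data known.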

Additional observations from a re-analysis of the deposited data

Results flagged for a closer look

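In groups of 4 libraries the highest or lowest value was compared with the others, with a gap of more than 0.829 of the range as the criterion. Of 21 groups of receptor and ligand genes 3 met it, where chance gives about 1 in 20. Cx3cr1 was at 89.94 CPM in tumour-bearing spleen replicate 1 and between 143.4 and 151.2 in the other 3. Cxcr6 was at 113.1 CPM in tumour replicate 1 and between 75.16 and 81.15 in the other 3. Pf4 was at 9.019 CPM in tumour replicate 3 and had 0 counts in the other 3 tumour libraries.

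In the sCAF libraries, which enter no comparison of receptors, 3 chemokine receptor genes exceeded 3 counts in every library. Ackr3 had a mean of 157 CPM, Ccrl2 of 17.26 CPM and Cxcr3 of 6.77 CPM.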

How the results depend on the processing

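Called genes numbered 2453, 2582 and 134 in the comparisons of tumours with tumour-bearing spleens, of tumours with healthy spleens, and of the spleens. They became 1495 against tumour-bearing replicates 1 and 2 only, 1099 against healthy replicate 1 only, and 691 with the set of spleen libraries as a block, and leaving out libraries gave 42 to 142 between the spleens (42 without healthy replicate 2, 67 without replicate 3). Upper-quartile scaling moved the split of higher and lower calls from 1338 and 1115 to 1091 and 1530, and from 1399 and 1183 to 1154 and 1569.

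Cxcr4 and Ccr7 kept their calls in the tumour comparisons under all alternatives that gave a value, as did Cx3cr1 in the comparisons with tumour-bearing spleens. The call of Ccr7, which passed the filter only through the tumour libraries, remains a description. Cx3cr1 against healthy spleens lost its call against healthy replicate 1 alone (−0.968) and ranged from −0.937 to −0.63 with libraries left out. Cxcr3 against tumour-bearing spleens was called with these 2 groups fitted alone (0.45) and ranged from 0.389 to 0.534 with libraries left out. Against healthy replicate 1 alone it was 1.68. Between the spleens, where no call was made, Cxcr3 turned to 0.00377 with the set as a block, Ccr2 to −0.0152 in DESeq2 and −0.176 with the block, and Cxcr6 to −0.114 with the block. Ccr2 turned to −0.0459 against healthy replicate 1. With libraries left out, the spleen difference ran from −0.322 to 0.148 for Cxcr3, −0.439 to 1.31 for Ccr2, −0.302 to 0.386 for Cxcr6 and −0.192 to 0.461 for Cxcl10. The cause was not tested. The sCAF ligand levels stayed within 1 SD in all 28 alternatives. Most of these left out 1 of the 3 libraries, which cannot move the mean by 1 SD of the same 3. They therefore say nothing about how stable the levels are.

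Healthy mice cannot be paired with tumour-bearing ones, so only tumour-bearing spleens and tumours could share mice by replicate number. There, deviations of same-numbered libraries correlated at −0.0457, 0.27, 0.00574 and 0.193 for replicates 1 to 4, which does not settle whether they were paired. Over all 10 same-numbered pairs, healthy spleens included, the range was −0.34 to 0.496. In this wider set 5 of 20 library comparisons were best with their own number. The replicate block gave 2626, 2648 and 115 called genes, changed no member's call, and removed that of Cxcr5 against healthy spleens (1.73, adjusted p = 0.0958).

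Totals of 559688 to 1966963 counts put the spleen counts of Ccr7 (1 to 6) and Cxcr5 (0 to 4) around 3, so their folds rest on few spleen counts.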
